A study of Mus musculus with 6 samples.

Results

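The choroid plexus epithelium is a sheet of cells in the brain ventricles that makes cerebrospinal fluid and guards the border between blood and that fluid. Its cells secrete carrier proteins, move water and ions across the sheet, and take up vitamins and hormones for the brain. Since the tissue hangs in the ventricles and is easily torn, its transcripts can reach a dissected brain region as small carried-over pieces. This account follows 10 genes known for this epithelium, Ttr, Enpp2, Folr1, Kl, Clic6, Aqp1, Kcne2, Otx2, Slc4a5 and Prlr. They were chosen by symbol, with earlier results of these data known. Of these, 9 were found by Ensembl identifier among the 21006 genes of the deposited values. The level of Slc4a5, a sodium bicarbonate cotransporter, was not analysed here.

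RNA was sequenced from the prefrontal cortex of 6 male wild type C57BL/6 mice, with 1 sample per animal and 3 animals in each group. The age label reads 18 months, while the titles of all 6 samples carry 17M. PND, a mouse model of neurocognitive disorder after an operation, meant 1.5% isoflurane for 30 min and an exploratory laparotomy of 30 min, also under isoflurane, with lidocaine cream on the wound. The mice of the CON group had neither anesthesia nor surgery before the tissue was taken. The effects of anesthetic, surgery and cream cannot be told apart. All animals, CON included, were perfused with saline under deep isoflurane anesthesia, and the tissue was taken after a spatial memory test. Levels are FPKM, which scale fragments by exon length and library size. Comparisons between genes use these values as deposited, and whether the counting lowered some genes more than others was not tested. The effective depth, estimated from the steps between low values, was 7211206 to 9383230 fragments per sample.

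The 9 genes did not share a common level. Ttr, Folr1, Aqp1, Kcne2 and Otx2 were at or near 0 in both groups, while Enpp2, Clic6, Kl and Prlr had fragments in every sample. The cut-off asked for a log2 fold change beyond 1 in either direction together with a limma unadjusted p under 0.05. No member (0 of 4 tested) passed it, with 1.33% of the 18185 genes tested as the background. At an unadjusted p below 0.05 there was 1 member, Clic6, against a background of 3.13% in either direction and 1.73% for genes higher in PND. Adjusted for all genes by limma and Benjamini-Hochberg, 0 members had a p below 0.05, against a background of 0.011%. In whole tissue, fewer cells of a type and less RNA per cell cannot be told apart.

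The promoter windows of Otx2 and Prlr are shown to place the short motifs of factors that are known in this tissue. Otx2 is itself a homeobox transcription factor that the developing choroid plexus needs, and its family binds TAATCC. FOX factors, which include the cilia regulator Foxj1, bind GTAAACA. The RefSeq table on GRCm38.p6 held 12 windows for 6 of the members (Kl, Aqp1, Slc4a5, Otx2, Prlr and Kcne2), and the 250 bases before each start were searched on both strands. In the lines below the match is in capitals. Each match lies on the strand opposite to the gene, so the capitals read as its reverse complement.
Otx2, chr14:48665110-48665359, minus strand: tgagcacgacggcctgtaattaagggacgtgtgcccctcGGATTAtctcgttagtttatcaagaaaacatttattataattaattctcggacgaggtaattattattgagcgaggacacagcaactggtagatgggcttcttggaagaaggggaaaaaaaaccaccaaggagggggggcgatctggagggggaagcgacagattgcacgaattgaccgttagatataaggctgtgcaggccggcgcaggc
Prlr, chr15:10223656-10223905, plus strand: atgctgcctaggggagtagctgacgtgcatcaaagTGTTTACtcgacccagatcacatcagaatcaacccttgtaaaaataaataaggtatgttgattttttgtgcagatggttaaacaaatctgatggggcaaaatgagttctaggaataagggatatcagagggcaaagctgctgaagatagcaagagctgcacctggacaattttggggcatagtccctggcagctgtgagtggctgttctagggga

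The TAATCC match began 211 bases before this Otx2 start, and 1 of the 12 windows held it. Of all 32851 windows of the same length, 6.25% held TAATCC. The GTAAACA match began 215 bases before this Prlr start, again in 1 of the 12 windows, and 3.17% of all windows held it. The motif GTTGCCA of the RFX family, other regulators of cilia, was in 1 window, that of another Otx2 start, and in 3.66% of all windows. A match in these letters is a description and not a bound site.

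**Figure D1:**
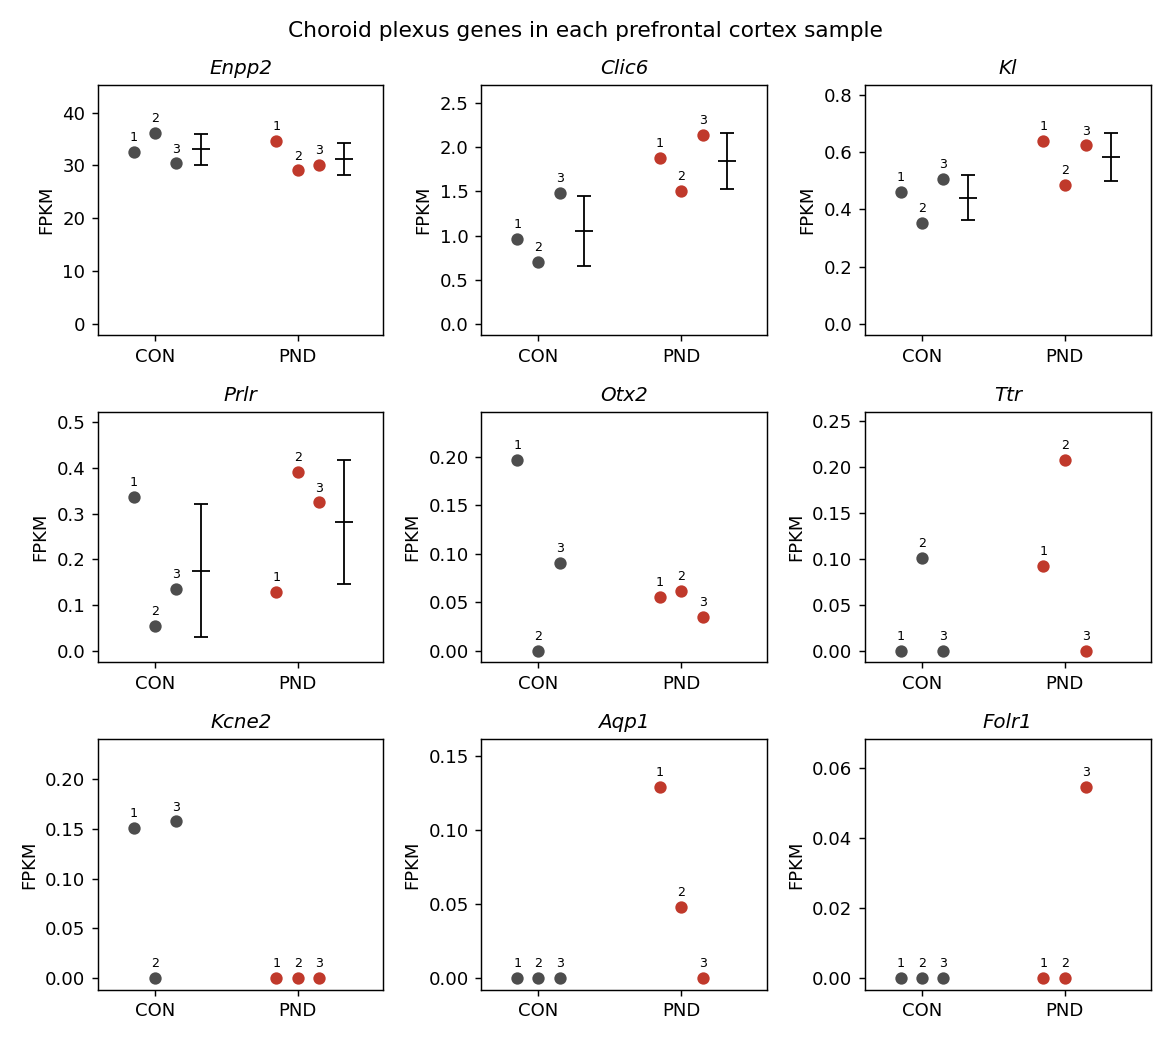
Level (FPKM, linear axis from 0, own scale in each panel) of the 9 members in the 3 CON and 3 PND samples, with the replicate number at each point. Bars beside the points give mean and SD (n = 3) for the 4 members that passed the filter on low values. Clic6 lay at 1.51 to 2.14 FPKM in PND and 0.701 to 1.49 FPKM in CON, and the panels from Otx2 to Folr1 rest on a few fragments.

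The secreted carrier and the transport proteins of the epithelium with low values come first. Ttr encodes transthyretin, which carries thyroxine and the retinol-binding protein in cerebrospinal fluid and is among the most abundant mRNAs of the choroid plexus (ENSMUSG00000061808, chromosome 18, 20665280 to 20674321 in GRCm38). Its level was 0.0927, 0.207 and 0 FPKM in PND replicates 1 to 3 and 0, 0.101 and 0 FPKM in CON replicates 1 to 3. This came to about 2.91 fragments in all of PND and 0.972 in all of CON. Ttr was thus listed at 0 in 3 of the 6 samples, and the groups overlapped. A count of 3 fragments, the floor used here, corresponded to 0.270 to 0.351 FPKM for Ttr, and no sample reached it, so no fold is given.

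Folr1 encodes the folate receptor alpha, which brings folate across the epithelium (ENSMUSG00000001827, chromosome 7, 101858331 to 101870788). It was at 0.0545 FPKM in PND replicate 3, about 1.17 fragments, and was listed at 0 in the other 5 samples. Aqp1 encodes the water channel of the apical membrane (ENSMUSG00000004655, chromosome 6, 55336432 to 55348555). Its level was 0.129, 0.0482 and 0 FPKM in PND, about 3.00 fragments in replicate 1 and 0.998 in replicate 2, and no CON sample was above 0. Kcne2, a regulatory subunit of potassium channels, showed the opposite order (ENSMUSG00000039672, chromosome 16, 92292389 to 92298129). No PND sample was above 0, and the CON samples had 0.151, 0 and 0.157 FPKM, at most about 2.01 fragments. None of these 3 genes exceeded about 3 fragments in any sample, so a difference between the groups was not detectable at this depth.

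Otx2 (ENSMUSG00000021848, chromosome 14, 48657677 to 48673819) had 0.0555, 0.0621 and 0.0349 FPKM in PND and 0.197, 0 and 0.0911 FPKM in CON. The CON samples lay both above and below all PND samples. CON replicate 1 held about 6.21 fragments and was the only sample above the floor. Its exons overlap those of Gm49154 on the same strand over 168 bases and those of Otx2os1 on the opposite strand over 154 bases. The use of strand in counting is not known, so reads in either stretch cannot be assigned to 1 gene. These 5 genes were put together by their low level. Over this low group the estimate was 13.6 fragments in PND and 14.0 fragments in CON. By sample it ran from 2.56 to 6.05 fragments in PND and from 0.972 to 8.20 fragments in CON, so the CON samples spanned the PND samples.

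Of genes that every cell uses, 15 were looked up, and all were above 0 in every sample. Some of them were low in these values, with Ppia at 0.502 to 2.00 FPKM and Gapdh at 2.68 to 6.85 FPKM, while Actb was at 77.0 to 111 FPKM. A low value in these files is therefore not by itself the absence of a transcript, and whether the counting lowered any member was not tested. Genes of cortical neurons such as Snap25, a protein of synaptic vesicle release, and Neurod6 were at a mean of 490 and 86.9 FPKM. Between 5 and 7 of the 9 members were above 0 in a given sample.

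Enpp2 encodes autotaxin, the secreted enzyme that makes lysophosphatidic acid, and besides the choroid plexus it is expressed by oligodendrocytes (ENSMUSG00000022425, chromosome 15, 54838901 to 54952892). Its level was 34.7, 29.0 and 30.1 FPKM in PND and 32.5, 36.2 and 30.4 FPKM in CON, so the groups overlapped. The means were 31.3 ± 3.01 and 33.0 ± 2.94 FPKM (SD, n = 3), with a log2 fold change of -0.078 (SE 0.12) in limma, a 95% interval from -0.36 to 0.20 and an adjusted p of 0.9999. At about 1265 to 1776 fragments per sample it was the best measured member, and a change of 2-fold in either direction lay outside its interval.

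Enpp2 alone made up 90.4% to 96.8% of the summed FPKM of the 9 members. The oligodendrocyte marker Mobp, which encodes a myelin protein, was at a mean of 122 FPKM. All 10 listed oligodendrocyte markers were tested and 0 passed the cut-off, and their sum ran from 330 to 411 FPKM in PND and from 382 to 416 FPKM in CON. Enpp2 was at 20.95% to 27.4% of Mobp in PND and at 23.6% to 32.3% in CON. Ttr, in contrast, was near 0 in the same libraries. The share of Enpp2 that came from either cell type was not tested.

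Clic6, a member of the chloride intracellular channel family, was the member with a p below 0.05 (ENSMUSG00000022949, chromosome 16, 92485736 to 92541243). Its level was 1.88, 1.51 and 2.14 FPKM in PND replicates 1 to 3 and 0.962, 0.701 and 1.49 FPKM in CON replicates 1 to 3. The lowest PND sample lay just above the highest CON sample, and the groups did not overlap, which was so for 7.66% of all genes tested, and for 3.78% with PND above CON. The exact Poisson intervals of that pair, 1.12 to 2.02 FPKM for PND replicate 2 and 1.07 to 2.01 FPKM for CON replicate 3, covered each other and hold counting error only. The PND mean was 1.85 ± 0.319 FPKM and the CON mean 1.05 ± 0.399 FPKM (SD, n = 3).

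Low genes appear to differ less than they do on a log2(FPKM + 0.1) scale. On it, the Clic6 fold change was 0.80 (SE 0.30), with a 95% interval from 0.091 to 1.51. Its unadjusted p in limma was 0.0319, its adjusted p was 0.9999, and its fold change was below the cut-off. Without CON replicate 3 the fold change was 1.06 (limma unadjusted p 0.00946), past the cut-off. Without CON replicate 2, PND replicate 1, PND replicate 3 or CON replicate 1 the unadjusted p was 0.0863, 0.0815, 0.102 and 0.0653 in turn, with fold changes of 0.57 to 0.78.

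Kl encodes klotho, the coreceptor for the hormone FGF23, and it is expressed by neurons as well as by choroid plexus (ENSMUSG00000058488, chromosome 5, 150952607 to 150993817). Its level was 0.639, 0.485 and 0.623 FPKM in PND and 0.460, 0.353 and 0.506 FPKM in CON. PND replicate 2 lay below CON replicate 3, so the groups overlapped. The means were 0.582 ± 0.0847 and 0.440 ± 0.0788 FPKM (SD, n = 3), with a log2 fold change of 0.34 (SE 0.29), a 95% interval from -0.34 to 1.02 and a limma unadjusted p of 0.278. About 26.8 to 54.5 fragments per sample stood behind these values.

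Prlr encodes the prolactin receptor, through which the choroid plexus and the hypothalamus respond to prolactin (ENSMUSG00000005268, chromosome 15, 10177238 to 10349180). Its level was 0.130, 0.391 and 0.324 FPKM in PND and 0.336, 0.0542 and 0.135 FPKM in CON. Each group held both high and low samples. The means were 0.282 ± 0.136 and 0.175 ± 0.145 FPKM (SD, n = 3), and the log2 fold change was 0.53 (SE 0.53), with a 95% interval from -0.70 to 1.76 and a limma unadjusted p of 0.342. Its exons overlap those of Gm21973 on the same strand over 203 bases, and those of Enpp2 overlap Gm26684 on the opposite strand over 345 bases.

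In order of mean level over the 6 samples, the members ran from Enpp2 (32.2 FPKM) through Clic6 (1.45 FPKM), Kl (0.511 FPKM) and Prlr (0.228 FPKM) to Otx2, Ttr, Kcne2, Aqp1 and Folr1, all under 0.08 FPKM. The ranges of Enpp2 and Clic6, and of Clic6 and Kl, did not overlap. Kl lay above Prlr within each of the 6 samples, but their ranges overlapped, and the order among the last 5 could not be resolved at their few fragments. Enpp2 stood at or above 96.0% of all genes and Clic6 at or above 47.0%.

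The members did not keep a fixed ratio to each other. Enpp2 was 14.0 to 19.2 times Clic6 in PND and 20.4 to 51.6 times Clic6 in CON. Clic6 was 2.94 to 3.44 times Kl in PND and 1.99 to 2.93 times Kl in CON. The summed FPKM of the 9 members was 34.2 ± 3.06 in PND and 34.9 ± 2.34 in CON (SD, n = 3), a difference within the spread between replicates. Leaving out Enpp2, a choice made after the values were seen, the PND sum was 2.94 ± 0.239 FPKM and the CON sum 1.90 ± 0.610 FPKM (SD, n = 3), most of it Clic6. The median log2 fold change of the 4 members tested was 0.44, beside 0.012 over all genes tested, and 0.20 without CON replicate 2.

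CON replicate 2 was the lowest sample for Clic6, Kl and Prlr and the highest for Enpp2. Without it the fold changes of Kl and Prlr were 0.22 and 0.18 (limma unadjusted p 0.508 and 0.740). CON replicate 2 was also lowest in the sum of the 8 striatal markers, and in 6 of them taken singly (not Adora2a and Ppp1r1b). These genes are expressed in the tissue beneath the cortex and are led here by Penk. Their sum was 136 FPKM in CON replicate 2, 238 and 347 FPKM in CON replicates 1 and 3 and 211 to 263 FPKM in PND. All 8 were detected, 0 passed the cut-off, and their part in the levels of Clic6, Kl and Prlr was not tested.

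**Figure D2:**
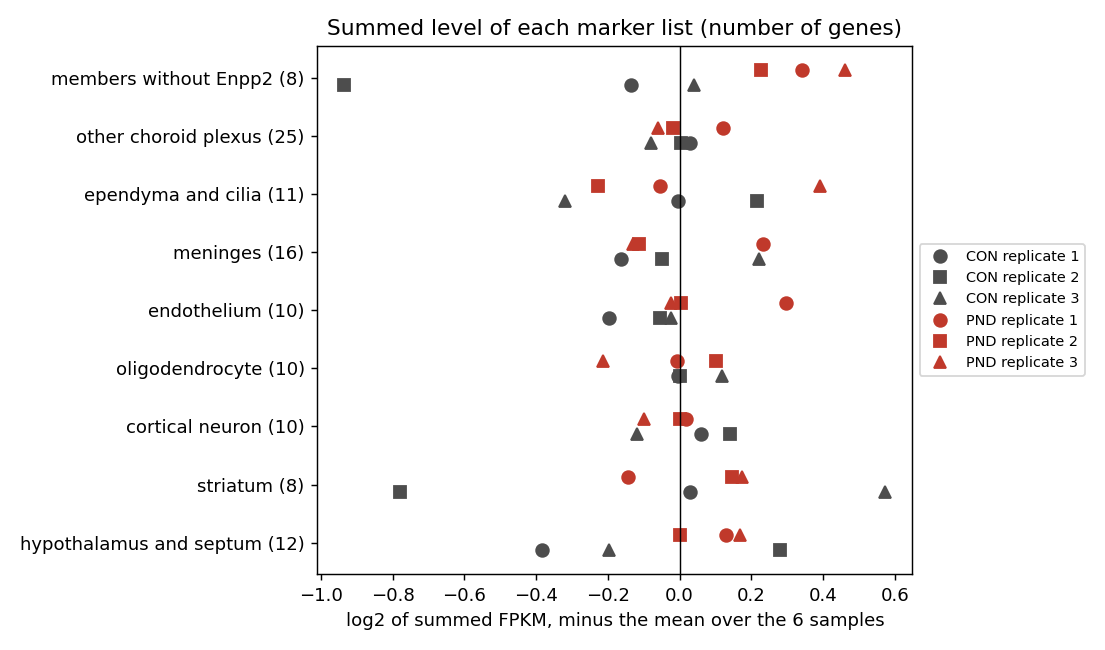
Summed FPKM of each list of marker genes in each sample, as log2 minus the mean over the 6 samples (x axis), with the number of genes in brackets, PND in red, CON in grey and the replicate by symbol. CON replicate 2 stands at -0.93 for the members without Enpp2 and at -0.78 for striatum, while the sums of the other choroid plexus genes stay between -0.080 and 0.12.

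To look further for choroid plexus RNA, 28 other genes known from this tissue were examined, of which 25 were found and 16 were tested. Of these, 1 was higher in PND past the cut-off, 0 were lower, and the background was 0.841% and 0.484%. The remaining 15 did not pass. The median log2 fold change of the 16 tested was 0.16. The groups did not overlap in 6 of the 16, with a background of 7.66%. PND was above CON in 4 of them (Sostdc1, Mfrp, Abca4 and Lbp), with a background of 3.78%, and below CON in Stk39 and Slc2a12. The first 2 of the 4 passed the filter on low values only through PND. The group sums overlapped, at 37.8 to 42.9 FPKM in PND and 37.2 to 40.2 FPKM in CON, and were carried by the broadly expressed kinase Stk39 and its partner gene Cab39l (means of 16.1 and 13.6 FPKM).

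The gene that passed was Sostdc1, a secreted antagonist of BMP and Wnt signalling (ENSMUSG00000036169, chromosome 12). It had 0.258, 0.289 and 0.304 FPKM in PND and 0.0762, 0 and 0.0794 FPKM in CON, and each PND sample lay above each CON sample. About 13.2 fragments stood behind the PND values and 2.03 behind the CON values. With a mean of 0.284 FPKM in PND and 0.0519 FPKM in CON, it passed the filter on low values only through PND, so its call is no independent support for a difference. The PND mean was 1.28 times the level of 3 fragments per CON library, a ratio that leaves out counting error and is no lower bound. Its log2 fold change was 1.38, its limma unadjusted p was 0.0119 and its adjusted p was 0.9999. With a pseudocount of 1 the log2 fold change was 0.29, below the cut-off, and with a pseudocount of 0.01 it was 2.78.

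Mfrp, a membrane protein of the frizzled-related family, had groups that did not overlap either, which was seen after its values were known. It was at 0.0813, 0.152 and 0.294 FPKM in PND and at 0.0640, 0.0147 and 0.0333 FPKM in CON, with a limma unadjusted p of 0.0827. Mfrp too passed the filter only through PND (means of 0.175 and 0.0373 FPKM), and it was not tested without PND replicate 2 or 3. Over 15 other alternatives in limma its unadjusted p ran from 0.0247 without an intensity trend to 0.271 with quantile normalization, and its log2 fold change from 0.18 to 1.94. The p was below 0.05 in 3 of them.

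Genes of this list with at least 1 FPKM other than Stk39 and Cab39l were Car12, Igf2, Ace and Slc13a4. Car12, a carbonic anhydrase, was at 1.44 to 3.32 FPKM in PND and at 0.776 to 2.30 FPKM in CON. Igf2, a growth factor made by choroid plexus and meninges, was at 1.47 to 2.49 and 0.872 to 2.13 FPKM, Ace, the angiotensin converting enzyme, at 1.03 to 1.79 and 0.689 to 1.97 FPKM, and Slc13a4, a sulfate transporter, at 0.666 to 1.85 and 1.01 to 1.56 FPKM. All 4 overlapped between the groups. The 9 genes of the list that were not tested held between 1.63 fragments (Cldn2) and 17.5 fragments (Tmem72) over all 6 samples, and are named here after their values were seen.

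**Figure D3:**
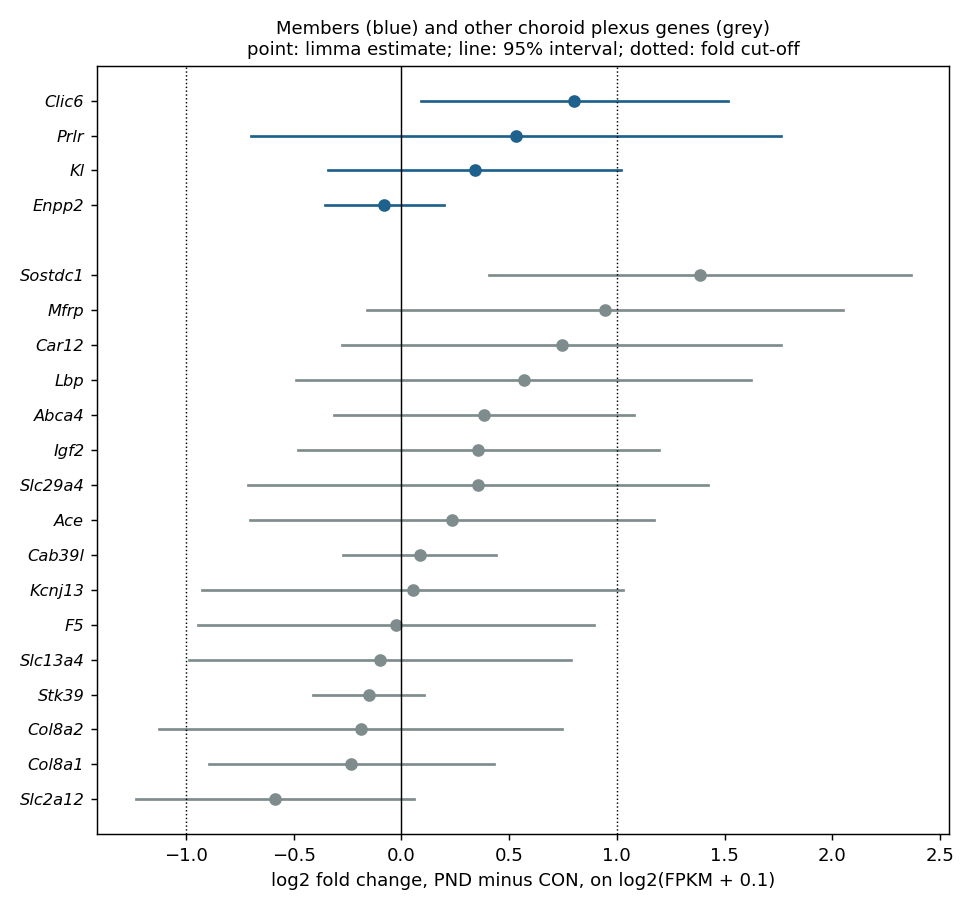
Log2 fold change, PND minus CON, on the log2(FPKM + 0.1) scale (x axis) for the 4 members tested and the 16 other choroid plexus genes tested. Points are limma estimates, lines 95% intervals, and dotted lines a log2 fold change of 1 in either direction. The intervals of Clic6 and Sostdc1 lie above 0, with estimates of 0.80 and 1.38, and the 18 others include 0.

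Markers of tissues that border the ventricles and the brain surface were read beside the members. Of 12 genes of ependyma and motile cilia, 11 were found, 8 were tested and 0 passed. Their sums were 6.81 to 10.5 FPKM in PND and 6.39 to 9.25 FPKM in CON, and the most abundant, Tppp3 and Rsph1, had log2 fold changes whose p missed the threshold. Of 16 meningeal genes, all were tested, 1 was higher past the cut-off and 0 were lower, with a background of 0.841% and 0.484%. Their median log2 fold change was -0.13, with 10 of 16 estimates below 0, and the sums were 26.0 to 33.4 and 25.4 to 33.2 FPKM. The gene that passed was Mgp, the matrix Gla protein, which is also made by vessel wall cells, with 1.10, 1.23 and 1.20 FPKM in PND and 0.401, 0.369 and 0.939 FPKM in CON (limma unadjusted p 0.0221, log2 fold change 1.03). Crabp2, a retinoic acid binding protein named after its values were seen, was at 0.402 to 0.796 FPKM in PND and at 0.849 to 1.09 FPKM in CON (log2 fold change -0.76, limma unadjusted p 0.0412). The most abundant meningeal genes, Slc6a20a and Dcn, had means of 4.61 and 4.02 FPKM.

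Of 10 endothelial genes, led by Slco1a4 and Abcb1a, 0 passed, and the sums were 44.8 to 56.0 FPKM in PND and 39.8 to 44.9 FPKM in CON. Ly6c1, an endothelial surface protein named after its values were seen, was at 4.27 to 7.11 FPKM in PND and at 3.12 to 3.35 FPKM in CON (log2 fold change 0.79, limma unadjusted p 0.00568). Of 5 blood genes, 4 were found, led by the globin genes Hbb-bs and Hba-a1, and PND replicate 1 had a sum of 2.76 FPKM against at most 0.191 FPKM in the other samples. Of 15 hypothalamic and septal genes 12 were found, led by Sst and Hap1, and of 10 genes of thalamus and midbrain 8 were found, led by Rora and Slc17a6, with 0 past the cut-off among the 10 and 5 tested. At an unadjusted p below 0.05 there were 0 of the first 10 and 1 of the 5, with a background of 3.13%. It was Prkcd, named after its values were seen (log2 fold change 0.70, limma unadjusted p 0.0375). Of 10 cortical neuron genes 0 passed. The part of these cell types in the values of the members was not tested.

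Genes that work with the members were taken from lists of partners. Among 10 genes of thyroid hormone and vitamin A transport, the cargo routes of transthyretin, 9 were tested and 0 passed, and the most abundant were Dio2 and Thra. Among 10 genes of ion and bicarbonate transport in fluid secretion, 9 were tested and 0 passed, led by Atp1b1, a subunit of the sodium pump. Among 17 receptors, ligands and signalling partners of klotho, prolactin, folate and lysophosphatidic acid, 16 were found, 12 were tested and 0 passed, with Jak2 and Lpar1 the most abundant.

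Of the 30 genes tested over these 3 lists, 4 had an unadjusted p below 0.05, with a background of 3.13%. They are Rbp4, Car2, Lpar1 and Fgfr2, named after their values were seen. Rbp4, the retinol-binding protein that transthyretin carries, was at 5.58, 5.17 and 4.02 FPKM in PND and at 3.70, 2.93 and 2.57 FPKM in CON (log2 fold change 0.67, limma unadjusted p 0.0126). Car2, a carbonic anhydrase, was at 18.3 to 20.1 FPKM in PND and at 24.2 to 31.8 FPKM in CON (log2 fold change -0.56, limma unadjusted p 0.00333). Lpar1, a receptor for the product of autotaxin, was at 6.26, 6.46 and 2.59 FPKM in PND and at 8.68, 7.60 and 9.02 FPKM in CON (log2 fold change -0.82, limma unadjusted p 0.0437). Fgfr2, which can pair with klotho, was at 2.48 to 2.68 FPKM in PND and at 3.29 to 3.84 FPKM in CON (log2 fold change -0.48, limma unadjusted p 0.0180). Each PND sample lay above each CON sample in Rbp4 and below each CON sample in the other 3 genes, which were picked by their p, and the adjusted p of all 4 was 0.9999. Over the 30 genes the groups did not overlap in 5, Dio2 among them, with a background of 7.66%.

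The pattern of the 4 members tested, taken as the mean of their centred log2 values, was 0.11, 0.16 and 0.32 in PND replicates 1 to 3 and -0.0034, -0.52 and -0.078 in CON replicates 1 to 3. It was compared with 12321 other genes of at least 1 FPKM by the root mean square difference over the 6 samples. The 10 nearest were Gpr83, Gm43768, Trim68, Ttc39c, A530064N14Rik, Zcchc12, Farp2, Gm10037, Sox21 and Heatr6, at 0.057 to 0.099 on the log2 scale, where the median gene was at 0.35. None of them was on the lists of choroid plexus genes. This says little, since members were left out and 19 of the 25 other choroid plexus genes averaged under 1 FPKM. Gpr83, a receptor of the brain, was the nearest, with 3.88, 4.03 and 4.44 FPKM in PND and 3.26, 2.34 and 3.08 FPKM in CON. With 6 samples many genes can come this near, and the order is a description.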

How the data were processed

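Per the methods of the study, ribosomal RNA was removed, libraries were sequenced on an Illumina HiSeq X instrument, reads were filtered with Seqtk and aligned with HISAT2, and fragments were counted with StringTie. The deposited values are FPKM that the authors scaled between samples by TMM, in 1 column per animal. The submitters' processing notes also name Bowtie 0.12.2, mm8 and mm9, with no role given. The annotation and the use of strand are not given in the sources used here.

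The groups came from the treatment labels and replicate numbers from the titles. Symbols were matched for 20866 of 21006 identifiers, and coordinates and exon lengths came from GENCODE M21 (GRCm38), which describes that build and not the deposited values. Depth was estimated from the steps of FPKM times exon length, where 41.6% to 44.7% of low values lay within 0.05 of a whole number against 10% without steps. At a doubled depth 92.8% to 93.6% of the whole numbers were even, so the lower depth was used. Fragment numbers are thus estimates.

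The test of PND against CON was limma 3.58.1 (R 4.3.3; lmFit, eBayes with trend, two-sided) on log2(FPKM + 0.1), for genes averaging 0.1 FPKM or more. Of the 9 members found, 4 passed this filter. The fit was tested on simulated data first. Named were all members, listed choroid plexus genes past the cut-off or of at least 1 FPKM, the 10 genes nearest in pattern, and of other lists those past the cut-off and the 2 most abundant, some of which are not reported here. The members and lists were chosen with earlier results of these data known. Alternatives changed the pseudocount, filter, scaling, trend, GC content, block, model, threshold and samples. The labels do not say more on the animals of a group, so p-values measure the spread between these samples. No pair of samples (0 of 15) held identical values.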

Additional observations from a re-analysis of the deposited data

How the results depend on the processing

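Over all genes tested, 241 passed the cut-off (153 higher, 88 lower), against 25 where the pseudocount was 1, 59 among genes averaging 1 FPKM or more, 88 with an unadjusted p below 0.01 and 2 with an adjusted p below 0.05. Leaving out 1 sample gave 235 to 388, the latter without CON replicate 2. Quantile normalization gave 124 higher and 116 lower, and median centring 154 and 100. Of the members, 0 passed under each alternative but 1, since Clic6 passed without CON replicate 3, so that leaving out a sample gave 0 to 1. The median log2 fold change of the members was 0.44, 0.13 with a pseudocount of 1, and 0.20 (without CON replicate 2) to 0.57 when 1 sample was left out. Across 18 alternatives Clic6 stayed between 0.48 and 1.06, and its unadjusted p rose above 0.05 in 4, all of which left out a sample. Enpp2 stayed between -0.16 and -0.011, Kl between 0.14 and 0.45 and Prlr between 0.13 and 0.93, with a lowest unadjusted p of 0.284, 0.117 and 0.124. Sostdc1 kept its direction, and a p below 0.05, in the 17 alternatives that tested it, but its fold change ran from 0.29 to 2.78 and fell under the cut-off with a pseudocount of 1.

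The replicate numbers did not pair the samples. The deviations of same-numbered samples from their group means correlated, across 12387 genes, at -0.049, -0.45 and 0.027. With the replicate block 226 genes and 0 members passed, and with GC correction and replicate block 269 and 0. Depth limits Ttr, Folr1, Aqp1, Kcne2 and Otx2, for which a few fragments could not show a difference. Leaving out Enpp2 from the sums was chosen after seeing the data.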
